A study of Homo sapiens with 24 samples.

Results

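The regions described here carried an H3K27ac peak in every TeloHAEC library and in no Eahy926 library. They were chosen by the peak calls themselves: autosomal peaks with a -log10 q of at least 2 from all 20 immunoprecipitated libraries were merged where they overlapped by at least 1 bp, and a merged region was kept when it overlapped a peak in all 10 TeloHAEC and none of the 10 Eahy926 libraries. Of 86917 merged regions, 1710 (1.97%) met this rule. The contrast between the lines is therefore the selection and is described without a test.

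Acetylation of lysine 27 on histone H3 marks nucleosomes next to active promoters and active enhancers, and ChIP-seq maps it by immunoprecipitating the modified chromatin and sequencing the recovered DNA. Promoter marking is largely shared between cell types, whereas many enhancers are marked in some cell types and not in others. TeloHAEC are human aortic endothelial cells immortalized with telomerase, and Eahy926 is a hybrid line made by fusing human umbilical vein endothelial cells with a lung carcinoma line. The cytokines IL1b and TNFa activate NF-kappaB signalling in endothelium, and VEGF is the main growth factor of endothelial cells.

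Both lines carried the parental genotype. The TeloHAEC controls were grown in an endothelial medium that contains VEGF, and the Eahy926 controls in DMEM with 10% serum, so line and medium cannot be told apart. Treated TeloHAEC received 10 ng/ml IL1b or 10 ng/ml TNFa for 24 h or were kept for 24 h in the medium without VEGF. Treated Eahy926 received the same cytokines at the same dose and time or had VEGF added for 24 h. Libraries were prepared on day 0 (untreated controls of both lines, and 4 input libraries) or day 1 (untreated controls and all treatments), with 2 biological replicates per line, condition and day, here named by day and replicate (1.2 is day 1, replicate 2). The files use hg19 and hold no gene names, and no hg19 annotation was used, so regions are given by position. The labelled endothelial identity was not checked against marker genes.

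Depth differed by day. The 2 day 0 TeloHAEC libraries held 18387194 and 20952578 tags after filtering and the 8 day 1 libraries 3843129 to 5912920. The shortest lists of autosomal peaks over the threshold were those of control 1.1 (28447 peaks) and VEGF-omitted 1.1 (29965), against 43088 to 53697 in the other day 1 TeloHAEC libraries.

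The regions with a peak in all 10 TeloHAEC libraries numbered 14613. Of these, 9509 (65.1%) also had a peak in all 10 Eahy926 libraries and are called common regions below, 3394 had a peak in 1 to 9 Eahy926 libraries, and the 1710 TeloHAEC-only regions made up 11.7%. The opposite corner held 1078 Eahy926-only regions, 6.45% of the 16721 regions with a peak in all 10 Eahy926 libraries. Most regions never called in Eahy926 were not constant in TeloHAEC: 30831 regions had a peak in at least 1 TeloHAEC library and in no Eahy926 library, and the 1710 were 5.55% of them.

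**Figure D1:**
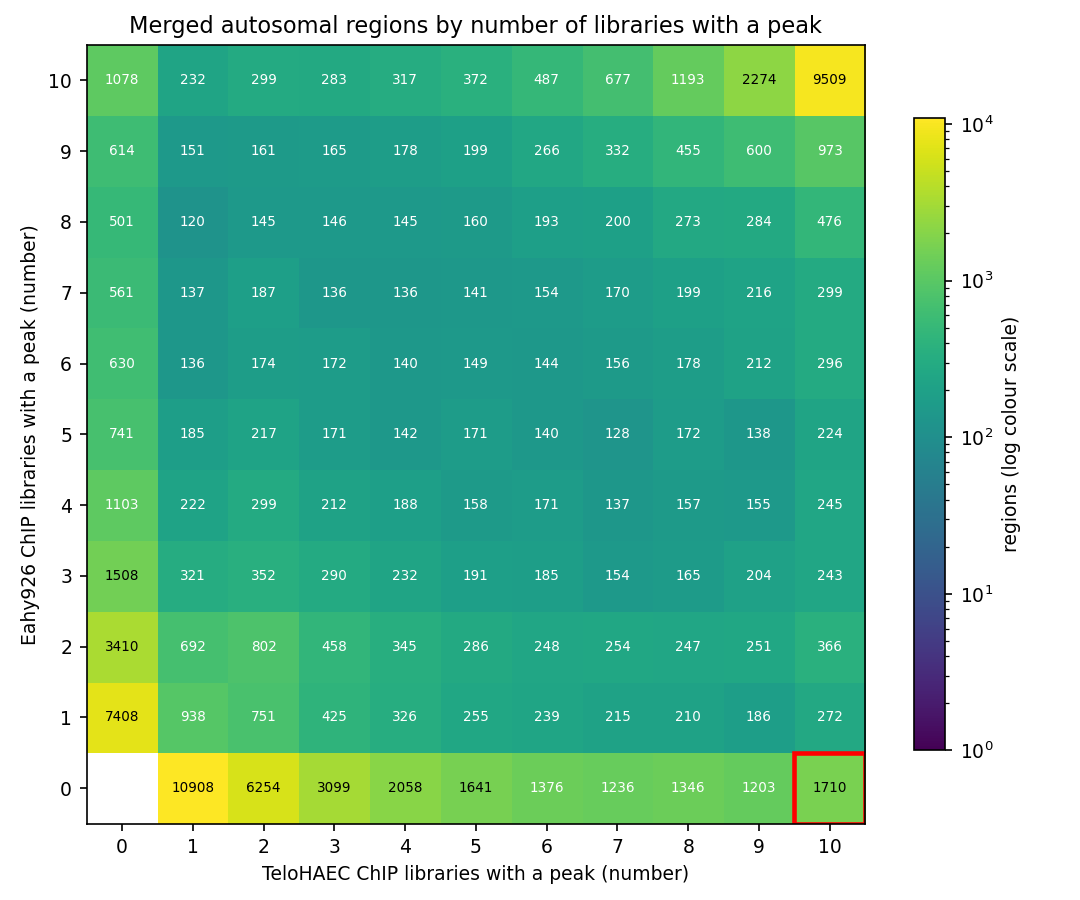
Number of merged autosomal regions (colour on a log scale, and printed) by the number of TeloHAEC libraries (x axis) and Eahy926 libraries (y axis) with a peak. The red square holds the 1710 TeloHAEC-only regions, beside 1203 regions missing from 1 TeloHAEC library and below 272 regions with a peak in 1 Eahy926 library.

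Just outside the rule lay 1203 regions with a peak in 9 TeloHAEC and no Eahy926 libraries. The missing library was control 1.1 for 539 of them and VEGF-omitted 1.1 for 339, and each of the other 8 libraries accounted for 15 to 64. The same 2 libraries held the weakest peak of most TeloHAEC-only regions, control 1.1 for 626 and VEGF-omitted 1.1 for 594. Membership thus depended most on these 2 libraries, and without both of them 3138 regions met the rule.

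At the threshold itself, the member chr17:73061382-73062469 had a lowest -log10 q of 2.0 over the TeloHAEC libraries, chr1:231395668-231397134 had 2.01 and chr16:88592634-88593963 had 2.01. Just outside, chr10:76939773-76941459 had a single Eahy926 peak, in control 1.1, with a -log10 q of 2.02 and a pileup of 5 stacked fragments. The region chr3:124751170-124752019 was lost by a peak of -log10 q 2.07 in Eahy926 TNFa 1.1, and chr10:72774928-72776329 by one of 2.1 in the same library. These differences are a few fragments deep, so membership near the boundary is not sharp. Over all 1710 regions the median of the lowest -log10 q was 3.60. In 434 regions (25.4%) it was at least 5, in 30 (1.75%) at least 10, and in 532 (31.1%) under 3.

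The Eahy926 lists also held weaker peaks, deposited but under the threshold. These were few, 969 to 2559 per library, against 27425 to 46477 peaks over the threshold. Of the 1710 regions, 1642 (96.0%) overlapped none of them in any Eahy926 library, 57 overlapped one in 1 library, 11 in 2 libraries and none in 3 or more. By library, weaker peaks touched 2 to 22 of the regions, most often in TNFa 1.2 (22 regions) and control 0.1 (13 regions). The mirror case was similar: 1049 of the 1078 Eahy926-only regions (97.3%) had no weaker TeloHAEC peak, with 679 to 3695 weaker peaks per TeloHAEC library. With so few weaker peaks listed, little overlap was possible, and signal under the threshold in the other line cannot be judged from it. The input lists were short too, with 448 to 848 autosomal peaks as deposited and 92 to 123 over the threshold. As deposited they overlapped 53 to 119 of the 9509 common regions, so input signal at the TeloHAEC-only regions cannot be judged from them. Peaks in the 2 TeloHAEC input libraries, as deposited, overlapped 8 and 6 of the 1710 regions and those in the 2 Eahy926 input libraries overlapped 0 and 3, and no input peak over the threshold overlapped any.

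Regions with a peak in all 10 TeloHAEC libraries and in only 1 Eahy926 group lie next to this set. In both TNFa-treated Eahy926 libraries and no other Eahy926 library, 32 such regions had a peak. The corresponding number was 2 for the day 1 controls, 1 for IL1b and 0 for added VEGF, and it was 212 for the deeper day 0 controls. The TNFa libraries held 6374973 and 6343896 tags, against 7122108 and 6275124 in the controls, 6002173 and 5568829 with IL1b and 6233402 and 6957252 with VEGF. Their lists held 38746 and 43613 peaks, against 39617 and 37789 in the controls, 35994 and 27425 with IL1b and 38007 and 41603 with VEGF. TNFa 1.2 thus had the longest list of the Eahy926 day 1 libraries. These counts were not tested, and neither was the part of depth or list length in them. The same counts over all merged regions are not given here, so nothing particular to these regions is read from them.

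Among those 32 regions, which were picked out after their values were seen, the strongest Eahy926 peaks lay at chr11:71198995-71200433, where the fold enrichment was 6.02 and 5.65 in the TNFa libraries and the TeloHAEC median was 5.41. A second region followed directly, chr11:71200526-71201301, with 4.21 and 5.92 in the TNFa libraries and a TeloHAEC median of 5.16. At chr8:17205645-17206211 the fold enrichment was 6.36 and 5.05 with TNFa in Eahy926 and 3.95 as the TeloHAEC median. Fold enrichment is the authors' ratio of the pileup at a summit to the local background of the same library. Over the 32 regions, both TNFa libraries of Eahy926 were above the TeloHAEC median in 3, 1 of them in 9 and neither in 20. Their selection asked for a peak in all 10 TeloHAEC and in no other Eahy926 library, so no line difference is read from this tally. The TeloHAEC median also includes the deeper day 0 libraries. There the median fold enrichment of common regions was 7.24 and 7.64, against 4.99 to 5.96 on day 1.

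TeloHAEC-only regions were narrower and lower than common regions. Both sets were chosen by peak calls, and the part of that selection in these differences was not tested. The merged width had a median of 1346 bp (475 to 3443 bp), against 1655 bp for common and 1413.5 bp for Eahy926-only regions. A merged width joins the peaks of 20 libraries in common regions and of 10 in the others, so these widths are not alike. Within TeloHAEC libraries, the median number of bp under peaks was 788 in TeloHAEC-only and 949 in common regions. The median fold enrichment over the TeloHAEC libraries was 5.40 (2.23 to 11.8 over regions), against 5.86 for common regions. Eahy926-only regions were likewise lower in their own line, at 5.35 over the Eahy926 libraries against 6.08 for common regions. Only 2 of the 1710 regions (0.117%) reached a median fold enrichment of 10, against 118 common regions (1.24%). A single peak in each of the 10 TeloHAEC libraries made up 594 of the regions (34.7%), and the mean number of summits per library had a median of 1.5, against 1.8 in common regions.

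Height was measured as the pileup, the number of fragments stacked at the tallest summit of the region. The median pileup of the TeloHAEC-only regions was 46 and 56 fragments in the day 0 libraries and 14 to 26 in the day 1 libraries, so each day 1 height rests on few fragments. Scaled per 1000000 tags it was 2.5 and 2.67 on day 0 and 2.90 to 4.48 on day 1. Relative to the common regions of the same library, the median pileup was 0.590 and 0.583 of theirs on day 0 and 0.80 to 0.875 on day 1, without overlap between the days. Eahy926-only regions behaved in the same way in their own line, at 0.545 and 0.533 of the common regions on day 0 and 0.724 to 0.828 on day 1. Day goes with depth, and the rule asked for a peak in each of the shallow day 1 libraries, so the part played by depth, day or selection was not tested.

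**Figure D2:**
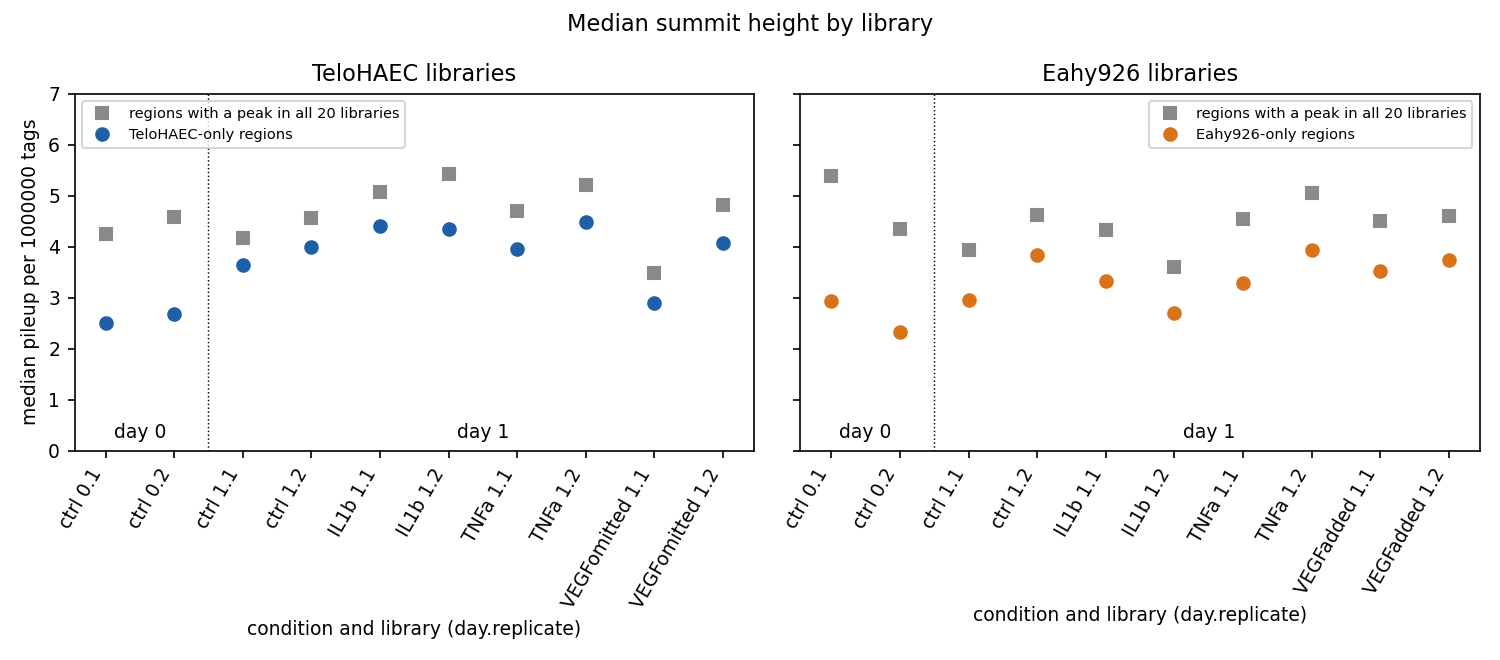
Median pileup per 1000000 tags (y axis, from 0) in each library (x axis) of common regions (squares) and of the regions called in that line alone (circles). In both panels the circles lie farthest below the squares in the 2 day 0 libraries.

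Rank correlations of height across the 1710 regions, given as a description, followed the same division. They were 0.617 to 0.970 between TeloHAEC libraries of the same day (29 pairs, median 0.761) and 0.472 to 0.572 between libraries of different days (16 pairs, median 0.520). Libraries of 1 day share depth and preparation.

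The 8 TeloHAEC-only regions with the highest median fold enrichment are the clearest examples of the set. The first was chr5:171529956-171530992, 1037 bp wide. Its fold enrichment was 17.7 and 20.2 in the day 0 controls, 7.65 and 11 in the day 1 controls, 11.7 and 9.73 with IL1b, 11.8 and 15.0 with TNFa and 7.99 and 12.7 without VEGF. Both day 0 libraries lay above all day 1 libraries, and control 1.1 and VEGF-omitted 1.1 were the lowest. This order is not particular to the region. The median fold enrichment of common regions was 7.24 and 7.64 on day 0 and 4.99 to 5.96 on day 1, lowest in VEGF-omitted 1.1 (4.99) and control 1.1 (5.19). The nearest region with an Eahy926 peak was 4.71 kb away.

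The second was chr3:65949628-65950560, with a fold enrichment of 14.3 and 15.3 in the day 0 controls, 7.47 and 10.3 in the day 1 controls, 14.2 and 10.8 with IL1b, 9.96 and 10.4 with TNFa and 6.35 and 11.2 without VEGF. Its nearest region with an Eahy926 peak was 73.3 kb away. The other 6 were chr13:44482253-44483958, chr2:102680170-102681434, chr2:88315956-88316430, chr10:2967357-2968630, chr1:108479255-108479976 and chr14:56665470-56666938, with median fold enrichments of 9.60, 9.32, 9.08, 8.81, 8.80 and 8.72. None of the 8 overlapped a weaker Eahy926 peak in any library, which held for 96.0% of the whole set. Over the 10 libraries chr1:108479255-108479976 ranged from 8.09 to 14.1, and the narrowest of the 8, chr2:88315956-88316430, at 475 bp the narrowest region of the whole set, ranged from 4.31 to 13.2.

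The widest regions had a fold enrichment below the median of the set and a pileup above it. The widest, chr18:19926550-19929992, spanned 3443 bp with a mean of 4.4 summits per library and a fold enrichment of 2.97 to 3.61 over the 10 libraries, median 3.27. The next were chr2:33359509-33362658 (3150 bp), chr15:81389816-81392882 (3067 bp), chr20:53174616-53177603 (2988 bp) and chr17:2116889-2119874 (2986 bp), with median fold enrichments of 4.08, 4.66, 4.11 and 4.19. All 5 were below the median of 5.40 over the set. Their median pileups per 1000000 tags were 7.09, 4.09, 5.77, 9.79 and 6.24 in the same order, above the median of 3.78 over the set. None overlapped a weaker Eahy926 peak, as for 96.0% of the whole set.

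The regions were spread over all 22 autosomes and made up different shares of the regions constant in TeloHAEC. Chromosome 13 stood highest, with 83 TeloHAEC-only regions among 358 regions with a peak in all 10 TeloHAEC libraries (23.2%). The other chromosomes ranged from 8.32% on chromosome 12 (64 of 769) to 14.8% on chromosome 9 (89 of 600), and the median chromosome was at 11.2%. On chromosome 13 the Eahy926-only regions were 24 of 251 (9.56%), within the range of 3.42% to 13.8% over chromosomes. Neither the number of copies of a chromosome nor the composition of its sequence was examined.

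**Figure D3:**
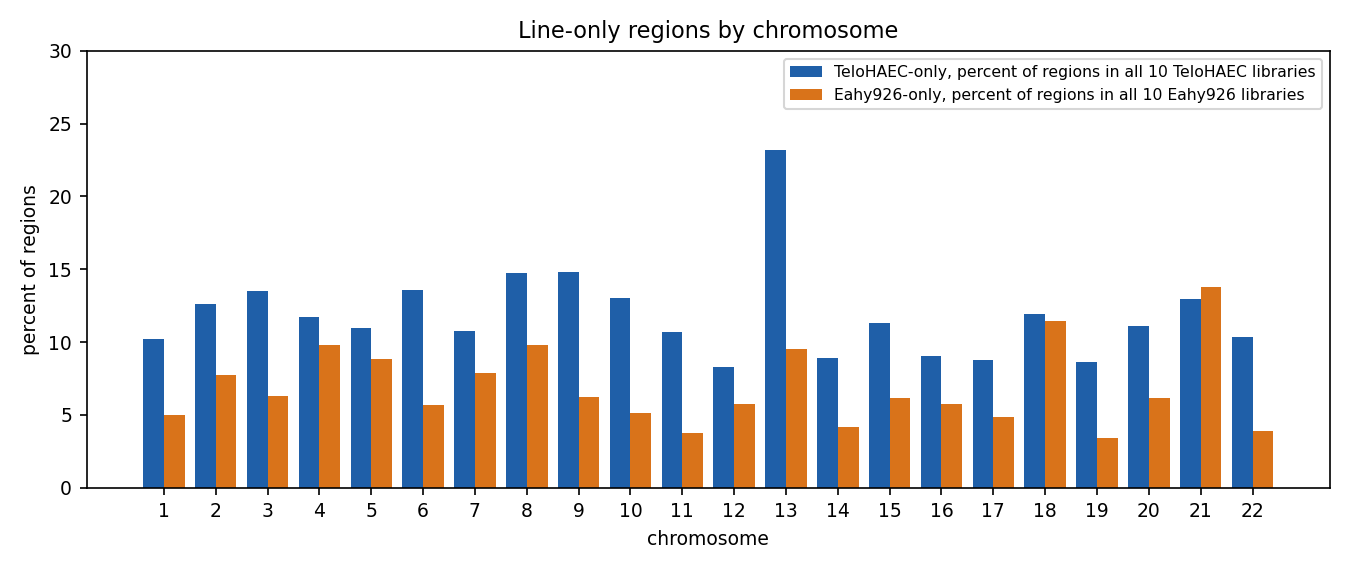
Percent of the regions constant in a line that were called in that line alone (y axis, from 0), by autosome (x axis). Chromosome 13 has the highest TeloHAEC bar at 23.2%, and the highest Eahy926 bar is at 13.8% on chromosome 21.

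Along the chromosomes, most TeloHAEC-only regions stood singly. The 1710 regions had 3420 neighbouring merged regions, 1 on each side, of which 322 (9.42%) were TeloHAEC-only themselves. A larger part, 2237 (65.4%), had no peak in any Eahy926 library, and 366 (10.7%) had a peak in all 10. Of all 86917 merged regions, 1.97% were TeloHAEC-only and 30831 had no Eahy926 peak, so both kinds were more frequent among neighbours. The mirror case was similar. Of the 2153 neighbours of Eahy926-only regions, 284 (13.2%) were Eahy926-only, beside 1.24% of all regions, and 1360 (63.2%) had no TeloHAEC peak. The nearest region with an Eahy926 peak lay at a median of 19.1 kb, within 5 kb for 337 regions and over 50 kb away for 513 (30%). The stretch around a region that held no Eahy926 peak had a median length of 101 kb. Eahy926-only regions lay farther from the other line's peaks, at a median of 39.3 kb.

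Runs of TeloHAEC-only regions with no other merged region between them were short: 116 runs of 2, 16 of 3, 3 of 4 and 1 of 5, against 1413 single regions. The run of 5 lay at chr10:125798271-125853574, spanning 55.3 kb, and its regions had median fold enrichments of 4.63 to 6.60. The runs of 4 lay at chr7:137941579-138024181 (82.6 kb), chr3:64940036-64982023 (42.0 kb) and chr10:97238851-97253795 (14.9 kb). The longest run of 3 lay at chr2:239347322-239554154, over 207 kb.

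The stretch without an Eahy926 peak that held most TeloHAEC-only regions was chr3:64341942-66023830. Over 1682 kb it contained 59 merged regions, by definition with peaks in TeloHAEC libraries alone, of which 14 were present in all 10. The run of 4 on chromosome 3 and the region with the second highest median fold enrichment both lay inside it. The next were chr10:127751868-128593403 with 11 of 36 regions, and chr13:80938298-83229395 and chr7:137850101-138144919 with 9 each. The stretch on chromosome 7 was the densest of these 4, with 20 merged regions in 295 kb.

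The treatments in TeloHAEC were compared within day 1. The rule did not use these contrasts, but it left out any region whose peak vanished in 1 library, so complete losses and gains cannot appear. Height was expressed relative to the common regions: a relative height of 1 equals the median pileup of the common regions in the same library. The limma test was fitted on log2 relative height over all 14613 regions with a peak in all 10 TeloHAEC libraries. A region was called at a Benjamini-Hochberg adjusted p under 0.05 over all of them. The IL1b, TNFa and VEGF comparisons share the 2 day 1 controls.

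With IL1b, a small number of the TeloHAEC-only regions changed in height in each direction. Of the 1710 regions, 22 (1.29%) were called higher and 30 (1.75%) lower, beside 0.753% higher and 0.766% lower of all 14613 regions tested. The median log2 difference was -0.06, beside -0.08 over all regions. The called regions differed by at least 0.93 on the log2 scale, with a median of 1.14 for those higher and -1.15 for those lower, and in all 52 the libraries of the groups did not overlap, as in all 222 regions called over the whole table.

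These IL1b calls rest on few libraries and on the choice of height. None of the 52 was called when the authors' fold enrichment replaced the pileup, when either IL1b library was left out, or when the controls of both days were joined. Leaving out control 1.1 lowered the number of calls and leaving out control 1.2 raised it, among TeloHAEC-only regions and among all regions tested alike. Leaving out either day 0 or either TNFa library also lowered both numbers. Those libraries enter this contrast only through the pooled spread. The balance of directions depends on scaling: without centring on common regions 47 were higher and 3 lower (301 and 12 of all regions), while the median of all regions moved from -0.08 to 0.19, and with quantile normalization 31 were higher and 18 lower (144 and 65 of all regions).

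The region with the largest increase was chr6:17830372-17831435. Its pileup was 10 and 13 fragments in the day 1 controls, 53 and 49 with IL1b, 36 and 54 with TNFa, 16 and 27 without VEGF and 100 and 107 in the deeper day 0 controls. As relative height this was 0.625 and 0.542 in the day 1 controls, 1.77 and 1.96 with IL1b, 1.44 and 1.86 with TNFa, 0.889 and 1.04 without VEGF and 1.28 and 1.12 on day 0. The cytokine libraries were the 4 highest. The log2 difference with IL1b was 1.68 (SE 0.22, limma adjusted p = 0.00486), about 3.20-fold, and with TNFa 1.49 (SE 0.22, limma adjusted p = 0.0132). On the scale of fold enrichment the log2 differences were 0.44 with IL1b and 0.28 with TNFa, and neither was called.

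At chr8:134930854-134932892 the relative height was 0.688 and 0.750 in the day 1 controls, 2.0 and 2.16 with IL1b, 2.08 and 1.97 with TNFa, 0.722 and 0.808 without VEGF and 0.244 and 0.260 on day 0. This region separated the 4 cytokine libraries from all 6 others, with log2 differences of 1.53 with IL1b (limma adjusted p = 0.00486) and 1.49 with TNFa (limma adjusted p = 0.0132). In length under peaks, taken relative to the total length that peaks covered in the same library, it did not rise, with log2 differences of -0.12 and -0.20. That total was 13.0 and 22.5 Mb in the day 1 controls, 29.5 and 24.1 Mb with IL1b and 24.3 and 28.0 Mb with TNFa. The unscaled length was not compared.

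At chr3:101801023-101801897 the relative height was 0.50 and 0.542 in the day 1 controls, 1.60 and 1.64 with IL1b, 0.960 and 1.55 with TNFa, 0.556 and 0.462 without VEGF and 0.718 and 0.667 on day 0. Both cytokines gave a call, with log2 differences of 1.64 for IL1b (limma adjusted p = 0.00847) and 1.23 for TNFa (limma adjusted p = 0.0478). At chr6:105993592-105995238 it was 0.50 and 0.458 in the day 1 controls, 1.57 and 1.32 with IL1b and 1.00 and 0.828 with TNFa. There the IL1b difference of 1.59 was called (limma adjusted p = 0.00910) and the TNFa difference of 0.93 was not (0.118). The fifth, chr14:92874673-92875680, stayed below the common regions throughout, at 0.312 and 0.25 in the day 1 controls and 0.80 and 0.640 with IL1b (log2 difference 1.36, limma adjusted p = 0.0304).

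The largest decrease with IL1b was at chr1:83385706-83387207. Its relative height was 1.12 and 0.708 in the day 1 controls, 0.300 and 0.360 with IL1b, 0.40 and 0.483 with TNFa, 0.333 and 0.423 without VEGF and 1.88 and 2.16 on day 0. All 6 treated libraries lay below the 4 controls. The log2 difference was -1.44 with IL1b (SE 0.25, limma adjusted p = 0.0192), and the values of -1.02 with TNFa and -1.25 without VEGF were not called (limma adjusted p = 0.104 and 0.374). These 3 differences have the same 2 controls in common.

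At chr2:202055448-202057154 the relative height was 1.00 and 1.04 in the day 1 controls, 0.333 and 0.520 with IL1b, 0.640 and 0.793 with TNFa, 0.611 and 0.615 without VEGF and 0.359 and 0.406 on day 0. The IL1b libraries lay below the other day 1 libraries and overlapped the day 0 controls (log2 difference -1.29, limma adjusted p = 0.0241). At chr19:2982658-2984486 the height went from 1.31 and 1.12 in the day 1 controls to 0.567 and 0.360 with IL1b (log2 difference -1.43). At chr14:71673051-71673705 it went from 0.875 and 0.458 to 0.200 and 0.280 (-1.42), and at chr11:109253787-109255120 from 0.562 and 0.542 to 0.167 and 0.280 (-1.35). Several of these heights are under 10 fragments. Of 19 alternatives for each region, 3 to 10 kept the call at the named IL1b decreases and 9 to 14 at the named IL1b increases. The fewest were 3 at chr11:109253787-109255120 and 5 at chr14:71673051-71673705.

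**Figure D4:**
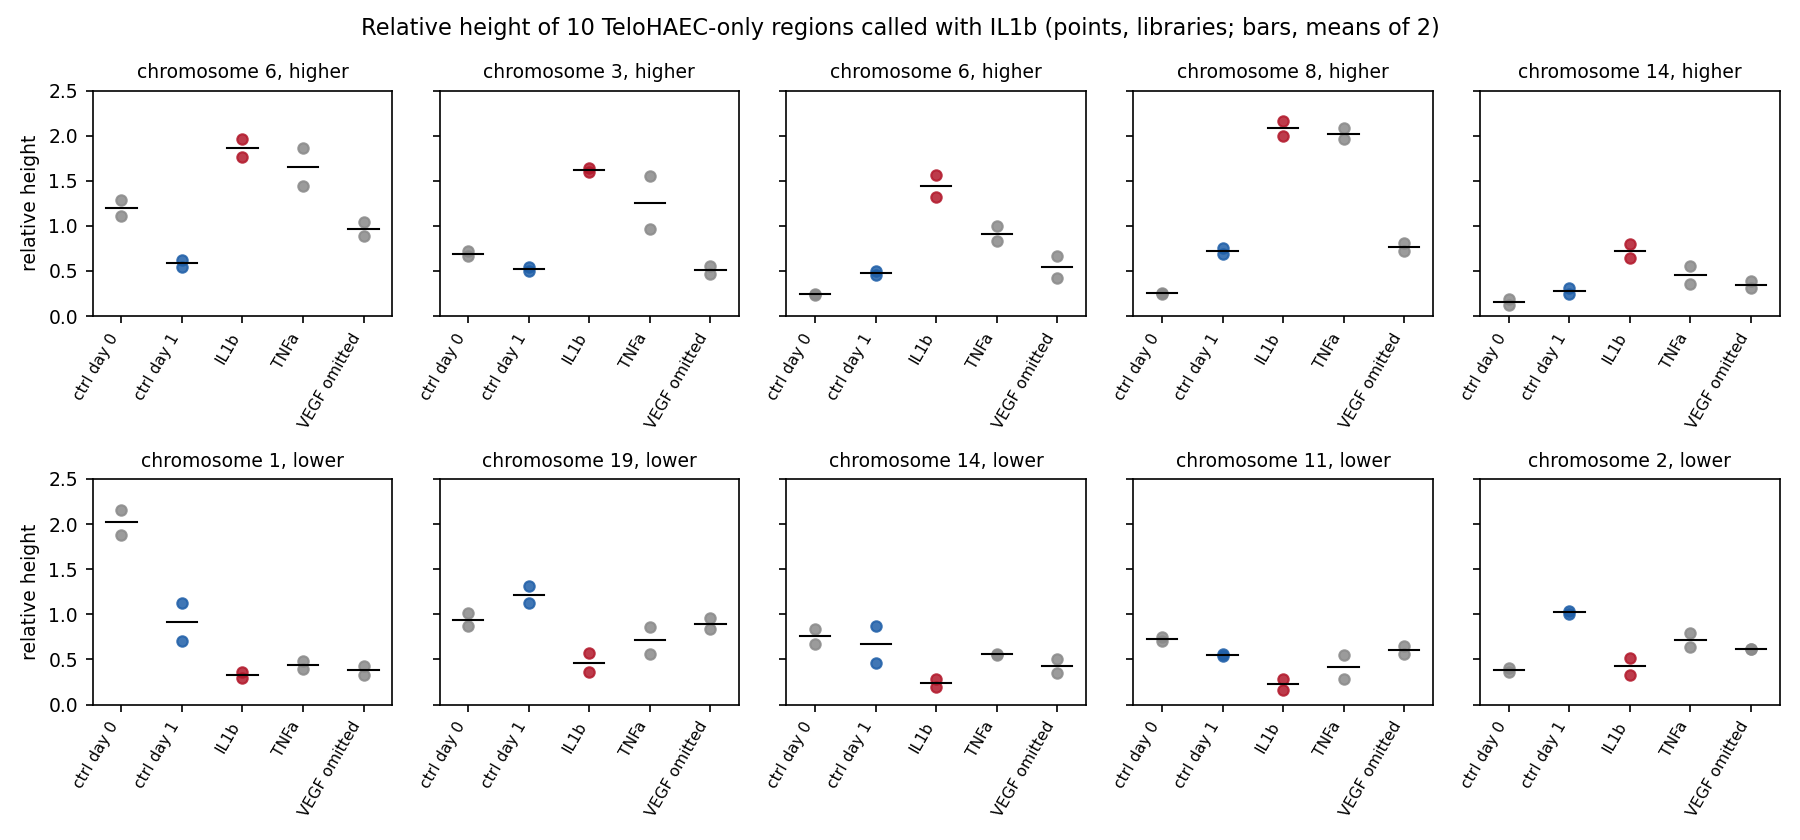
Relative height (y axis, from 0; 1 is the median common region of the same library) of the 5 TeloHAEC-only regions with the largest increase and the 5 with the largest decrease with IL1b, by condition (x axis). Points are libraries and bars are means of 2; in each panel both IL1b points lie beyond both day 1 control points.

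With TNFa, 6 of the 1710 regions (0.351%) were called higher and 2 (0.117%) lower, beside 0.253% higher and 0.116% lower of all regions tested, so the shares were near the background. The groups did not overlap in any of the 8, nor in any of the 54 regions called over the whole table. The median log2 difference was -0.04, beside -0.05 over all regions. No region was called with fold enrichment, with length under peaks, with the joined controls or without either TNFa library. Leaving out control 1.1, either day 0 library or either IL1b library left fewer calls among the 1710 regions, and leaving out control 1.2 gave more. Quantile normalization gave 9 calls among the 1710, all higher. No share against all regions is read from these alternatives.

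Besides the regions on chromosomes 6, 8 and 3 above, TNFa raised chr1:27756596-27758388, with a relative height of 0.938 and 0.750 in the day 1 controls, 2.0 and 2.62 with TNFa, 1.90 and 1.68 with IL1b, 1.11 and 0.808 without VEGF and 0.359 and 0.406 on day 0 (log2 difference 1.45, limma adjusted p = 0.0212). Its fold enrichment moved by -0.05 on the log2 scale. At chr13:43112864-43114651 the relative height was 0.688 and 0.917 in the day 1 controls and 1.76 and 1.97 with TNFa (log2 difference 1.23, limma adjusted p = 0.0451). The untreated day 0 controls stood at 1.27 and 1.66, the IL1b libraries at 1.80 and 1.56 and those without VEGF at 1.22 and 1.54. All other libraries thus lay above the day 1 controls there.

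The 2 regions lower with TNFa were chr21:46721520-46722979 and chr6:150773294-150774718. The first had a relative height of 1.00 and 0.750 in the day 1 controls, 0.360 and 0.414 with TNFa and 0.433 and 0.440 with IL1b, with log2 differences of -1.17 for TNFa (limma adjusted p = 0.0478) and -0.99 for IL1b (0.0484). The second had 0.625 and 0.667 in the day 1 controls, 0.320 and 0.310 with TNFa and 0.567 and 0.480 with IL1b. Its log2 difference was -1.03 for TNFa (limma adjusted p = 0.0478) and -0.31 for IL1b, which was not called (0.447). Neither TNFa call was stable: of 19 alternatives, 3 kept the call at chr21:46721520-46722979 and 0 kept that at chr6:150773294-150774718. Among the regions raised with TNFa, 4 of 19 kept the call at chr3:101801023-101801897 and 6 of 19 at chr13:43112864-43114651. The call was kept in 12 of 19 at chr8:134930854-134932892, 11 of 19 at chr6:17830372-17831435 and 11 of 20 at chr1:27756596-27758388.

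**Figure D5:**
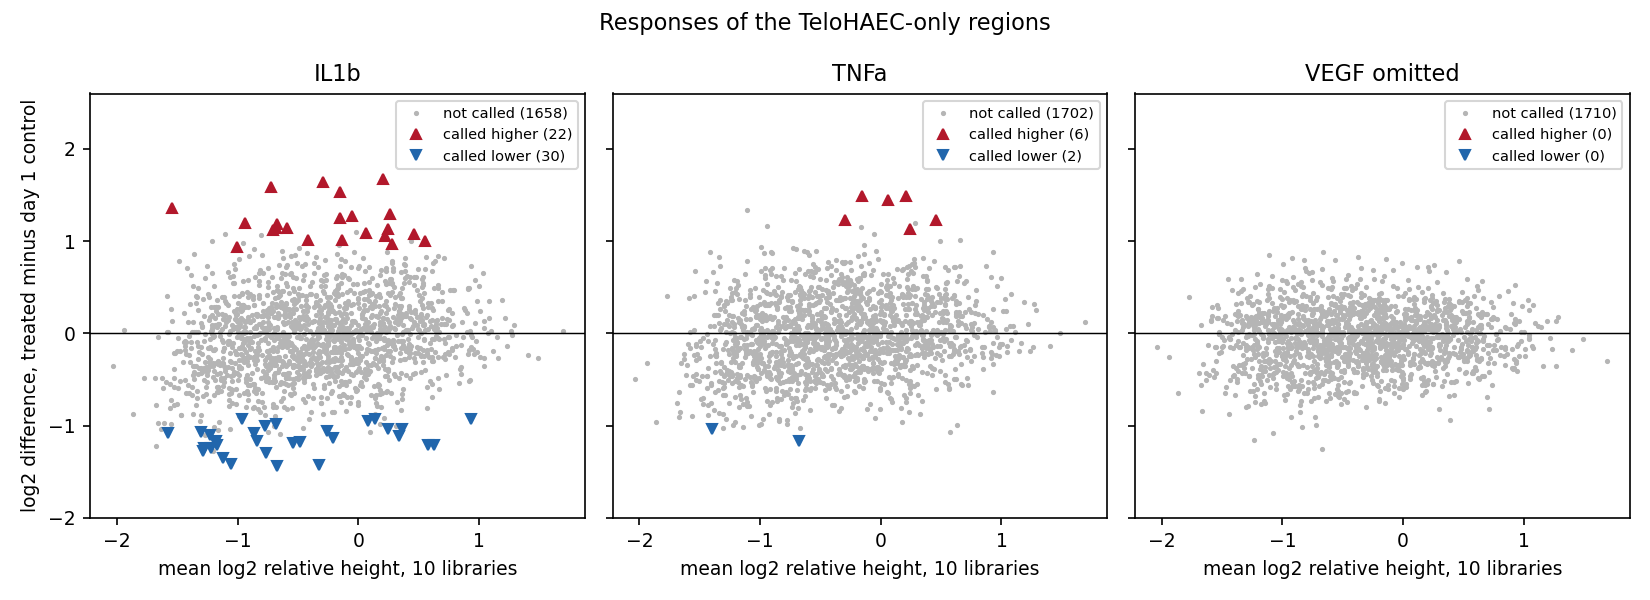
Log2 difference in relative height from the day 1 controls (y axis) against mean log2 relative height over the 10 TeloHAEC libraries (x axis) for the 1710 TeloHAEC-only regions with IL1b, TNFa and VEGF omitted. Triangles are called regions, 22 higher and 30 lower with IL1b, 6 and 2 with TNFa and none without VEGF.

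The cytokines were also set against each other directly. None of the TeloHAEC-only regions was called between IL1b and TNFa by limma, and none of all regions tested (0%), with 160 of the 1710 and 1000 of all 14613 at an unadjusted p under 0.05 and a smallest adjusted p of 0.126. The widest gaps lay at chr6:168047516-168048701 and chr10:29420847-29421859. The first had a relative height of 0.70 and 0.880 with IL1b and 0.280 and 0.276 with TNFa, and the day 1 controls were between them at 0.50 and 0.417. The second had 0.200 and 0.280 with IL1b and 0.680 and 0.759 with TNFa, again with the day 1 controls between, at 0.438 and 0.375. Their log2 differences were 1.5 and -1.60. Both differences were smaller as fold enrichment, at 0.88 and -0.98.

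Omitting VEGF gave no call by limma among the 1710 regions or among all regions tested (0%). An unadjusted p under 0.05 was reached by 158 of the 1710 and 1112 of all 14613, and the smallest adjusted p was 0.374. The smallest p for a decrease was at chr4:22180984-22181855, where the relative height was 0.812 and 0.625 in the day 1 controls and 0.333 and 0.308 without VEGF, from pileups of 13 and 15 against 6 and 8 fragments (log2 difference -1.15). For an increase it was at chr5:15365926-15366896, with 0.688 and 0.875 in the day 1 controls and 1.28 and 1.35 without VEGF (0.76, limma adjusted p = 0.504).

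Between the untreated controls of the 2 library days the differences were far larger than with any treatment. On day 1, 768 of the 1710 regions (44.9%) were called higher and 154 (9.01%) lower, beside 30.1% higher and 15.2% lower of all regions tested. The median log2 difference, day 1 minus day 0, was 0.52, beside 0.17 over all regions. Day, depth and culture cannot be told apart here, and nothing is read from the excess of higher calls, since the rule asked for a peak in the shallow day 1 libraries. With fold enrichment 247 were higher and 29 lower, and with quantile normalization 394 and 159.

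The steepest example was chr19:49243116-49244855, with a relative height of 0.244 and 0.25 in the day 0 controls and 2.25 and 1.71 in the day 1 controls. The treated libraries of day 1 spanned 0.880 to 1.73, so all 8 day 1 libraries lay above both day 0 libraries (log2 difference 2.99, SE 0.27, limma adjusted p = 5.05e-06). At chr20:4382433-4383182, chr6:47028982-47030160, chr20:61418493-61419561 and chr13:45464290-45465276 the log2 differences were 2.98, 2.94, 2.93 and 2.78, and all 4 were also called as fold enrichment.

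In the other direction, chr2:7218176-7219015 had a relative height of 2.17 and 2.25 in the day 0 controls and 0.438 and 0.542 in the day 1 controls (log2 difference -2.18). With IL1b it stood at 0.967 and 1.00 and with TNFa at 0.960 and 0.931. At chr11:130349702-130350770 the height was 2.62 and 2.82 on day 0 and 0.812 and 0.833 in the day 1 controls, and the treated libraries were lower still, at 0.40 to 0.556 (day difference -1.72). The log2 differences were -1.82 at chr2:12308588-12310813, -1.64 at chr2:19811009-19811778 and -1.61 at chr17:33943181-33944881. Of these 5, only chr2:7218176-7219015 was called as fold enrichment (log2 difference -0.65, limma adjusted p = 0.0327).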

How the data were processed

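H3K27ac ChIP-seq peak lists of 20 immunoprecipitated and 4 input libraries were used as deposited. Reads were aligned to hg19 with Bowtie2, whose version is not given in the sources used here, per the submitters' processing notes. Peaks were called by the authors with MACS 2.1.1.20160309, per the file headers, separately in every library and with no input sample. The deposited values per summit are a signal (the pileup of fragments, unscaled), a -log10 q and a fold enrichment over local background. Although a header line denies that q-values were computed, the deposited q column is filled and was used.

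Peaks on the 22 autosomes with -log10 q of at least 2 were merged. The tallest summit in a region was divided by the tags left after filtering, per the file headers, and centred on the median of common regions. These values were tested on the log2 scale with limma 3.58.1 in R 4.3.3, without a pseudocount, in 1 fit of 5 TeloHAEC groups of 2 libraries (5 residual degrees of freedom, prior 9.76). The script was tested on simulated data. With 2 libraries a group, p-values measure the spread between libraries pooled over the 5 groups, not that of the compared groups alone. The pool includes the deeper day 0 controls. Their heights had a rank correlation of 0.970 over the TeloHAEC-only regions, against 0.715 for the day 1 controls. With the compared groups alone, the IL1b calls over all regions fell from 222 to 17.

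Named regions are the 8 with the highest median fold enrichment, the 5 widest, the 5 longest runs, up to 5 called regions per contrast and direction without overlap between groups, the regions nearest the threshold and, where nothing was called, the smallest p. The stretches without an Eahy926 peak and the regions present only in TNFa-treated Eahy926 were chosen after their values were seen. The regions, lists and tests were chosen with earlier results of these data known. Gene lists (endothelial identity, arterial, venous, inflammatory and others) were prepared but not used, since no hg19 annotation was used. Alternatives are given at the end.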

Additional observations from a re-analysis of the deposited data

How the results depend on the processing

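The number of TeloHAEC-only regions was 576 at -log10 q of at least 5, 2913 with 1 TeloHAEC library allowed to miss and 3138 without control 1.1 and VEGF-omitted 1.1 (chosen after seeing the data), and leaving out single libraries gave 1714 to 2250. Counts of calls follow as all regions tested, then TeloHAEC-only regions. For IL1b (222 and 52) they were 0 and 0 with fold enrichment, 1 and 1 with length under peaks, 389 and 3 with regions in at least 2 TeloHAEC libraries, 120 and 26 at -log10 q of at least 5, 17 and 4 with the compared groups alone, 0 and 0 with controls of both days, and 14 and 3 without the 2 shortest lists. For TNFa (54 and 8) the same settings gave 0 and 0, 0 and 0, 242 and 1, 2 and 1, 0 and 0, 0 and 0, and 7 and 0. With regions in at least 2 libraries, VEGF omission gave 72 and 0 and IL1b against TNFa 172 and 0. For library day (6625 and 922) fold enrichment gave 1724 and 276, length under peaks 2118 and 314, regions in at least 2 libraries 19360 and 688, -log10 q of at least 5 2886 and 342, and quantile normalization 4559 and 553. Leaving out single libraries gave 0 to 839 and 0 to 113 for IL1b, 0 to 302 and 0 to 39 for TNFa, 0 and 0 for VEGF omission, 0 to 1 and 0 to 1 for IL1b against TNFa, and 4169 to 6795 and 648 to 940 for day; a lone library was assumed to vary like the others. Equal replicate numbers did not pair the libraries (correlations of deviations -0.05 to 0.21), and a replicate block gave 174 and 42 for IL1b, 52 and 7 for TNFa and 4394 and 676 for day.

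Of 31 named differences under 580 alternative values, 391 kept their direction and side of the threshold, 180 fell short of it, 1 newly passed it and 8 changed sign. Length under peaks was divided by the total length covered in the library, 13.0 to 39.2 Mb over TeloHAEC libraries, and 50 bp were added. Its signs are therefore relative to that total, and the IL1b median over all regions was -0.31. As this scaled length, the log2 differences turned to -0.12 (IL1b) and -0.20 (TNFa) at chr8:134930854-134932892. They turned to -0.067 (TNFa) at chr13:43112864-43114651 and -0.21 (IL1b against TNFa) at chr6:168047516-168048701. For day they turned to 0.20, 0.12 and 0.41 at chr2:7218176-7219015, chr2:12308588-12310813 and chr2:19811009-19811778. As fold enrichment, TNFa gave -0.052 at chr1:27756596-27758388. The cause was not tested. Fewer samples or regions enter the fits with libraries left out, the groups alone or the stricter threshold. Heights of 14 to 26 fragments in the median limit all day 1 comparisons.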
